A study of Mus musculus with 8 samples.

Results

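Messenger RNA for 9 secreted or surface proteins of the gut lumen was followed across the intestine of 8 mice: the mucosal pentraxins Mptx1 and Mptx2, the lectins Zg16, Itln1 and Lgals4, the ribonuclease Ang4, the flagella-binding surface protein Lypd8, the lysozyme Lyz1 and the phospholipase Pla2g2a. They were taken by gene symbol as a list of proteins that the gut makes without infection, and they are 9 of the 49585 gene identifiers in the expression table. The mice were 4 Klebsiella recipients and 4 Lactobacillus recipients, named after genera of gut bacteria. All were C57BL/6, each library came from 1 numbered mouse, and the RNA was extracted with Trizol from intestine frozen in liquid nitrogen. No untreated mice are among them. What the recipients were given beyond the genus, for how long, at what age and from which segment is not stated in the labels.

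The gut epithelium keeps bacteria at a distance with a layer of mucus, made by goblet cells, and with proteins released into it. Lectins such as Zg16 and intelectin bind sugars or cell wall of bacteria, Lypd8 holds flagellated bacteria away from the inner mucus in the mouse, and ribonucleases, lysozyme and phospholipase can damage bacteria directly. In the small intestine much of this comes from Paneth cells, which the colon largely lacks, and there goblet cells and absorptive colonocytes are the main sources. C57BL/6 mice are known for a disrupted Pla2g2a gene, which makes that strain deficient in the enzyme.

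Mptx1 and Mptx2, and Itln1 and Ang4, were the pairs of members with the highest correlations across the 8 libraries (r 0.89 and 0.87), so the stretches just before their start sites are shown. They are the 5′ to 3′ sequences that RefSeq gives on GRCm38.p6, at chr1:174330268-174330517 (plus strand) for Mptx1, chr1:173277778-173278006 (minus strand) for Mptx2, chr1:171535295-171535544 (minus strand) for Itln1 and chr14:51773591-51773840 (minus strand) for Ang4. Capitals mark each match on either strand to the TATA box letters TATAAA, to TTTATG (the core bound by CDX factors of the gut), to TGANTCA (bound by AP-1) or to AGATAA (bound by GATA factors). For Mptx2 the 21 bases that overlap an annotated exon were left out.
Mptx1: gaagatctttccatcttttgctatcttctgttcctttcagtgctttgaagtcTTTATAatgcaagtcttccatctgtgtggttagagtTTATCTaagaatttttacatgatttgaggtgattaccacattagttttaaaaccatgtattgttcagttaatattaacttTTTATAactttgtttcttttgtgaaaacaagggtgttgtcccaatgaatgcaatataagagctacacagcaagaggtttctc
Mptx2: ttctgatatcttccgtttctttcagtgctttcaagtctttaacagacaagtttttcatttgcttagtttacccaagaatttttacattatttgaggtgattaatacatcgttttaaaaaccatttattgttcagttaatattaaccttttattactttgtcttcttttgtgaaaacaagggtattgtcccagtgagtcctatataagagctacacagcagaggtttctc
Itln1: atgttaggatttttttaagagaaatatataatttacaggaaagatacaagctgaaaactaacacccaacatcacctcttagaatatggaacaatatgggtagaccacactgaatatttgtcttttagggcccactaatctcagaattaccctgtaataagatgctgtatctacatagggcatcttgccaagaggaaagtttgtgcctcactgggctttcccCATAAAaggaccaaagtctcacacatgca
Ang4: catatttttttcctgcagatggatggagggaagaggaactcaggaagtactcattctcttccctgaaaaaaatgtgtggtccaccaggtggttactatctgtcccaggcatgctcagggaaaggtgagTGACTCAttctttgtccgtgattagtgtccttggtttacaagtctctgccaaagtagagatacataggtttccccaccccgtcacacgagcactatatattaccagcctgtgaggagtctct

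The Mptx1 and Mptx2 stretches were alike, with 83.9% identity over 236 aligned columns, and both genes lie on chromosome 1. Mptx1 held TATAAA beginning 198 and 82 bases before the start and AGATAA at 162 bases, Itln1 held TTTATG at 29 bases and Ang4 held TGANTCA at 122 bases. Mptx2 held none of these letters. Among 32851 promoters searched over 250 bases, TATAAA was in 12.4%, TTTATG in 10.8%, TGANTCA in 6.75% and AGATAA in 9.99%. The 4 stretches therefore shared no motif of those searched, and a match is only a description of the letters. RefSeq stretches were found for 7 of the 9 members.

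Filtered reads numbered 40455910 to 55447220 per library, of which 95.04% to 96.59% mapped. Reads recovered from the deposited values came to between 15753959 and 21548070 in genes. Correlations of log2 values between any pair of libraries were 0.949 to 0.976. The lowest share of bases at quality 30 or above was 90.65%, in Klebsiella replicate 4, against 94.03% to 94.57% in the other libraries. Levels are in FPKM, which scales reads by gene length and library depth and so allows genes to be compared.

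The members fell into a very abundant set and a sparse set. Mptx1, Lgals4, Lypd8, Zg16 and Ang4 had means of 7917, 3574, 2826, 2425 and 859.6 FPKM over the 8 libraries, while Itln1, Pla2g2a, Lyz1 and Mptx2 had means of 17.4, 9.94, 7.15 and 2.55 FPKM. Together the 9 genes held 1.69% to 3.33% of all FPKM in a library. Neighbours in this order were not cleanly apart. Mptx1 was above Lgals4 in 6 of 8 libraries, Lgals4 above Lypd8 in 7, Lypd8 above Zg16 in 6 and Zg16 above Ang4 in 6, whereas Ang4 was above Itln1 in all 8. Itln1 was above Pla2g2a in 4 of 8 libraries, Pla2g2a above Lyz1 in 5 and Lyz1 above Mptx2 in 7.

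**Figure D1:**
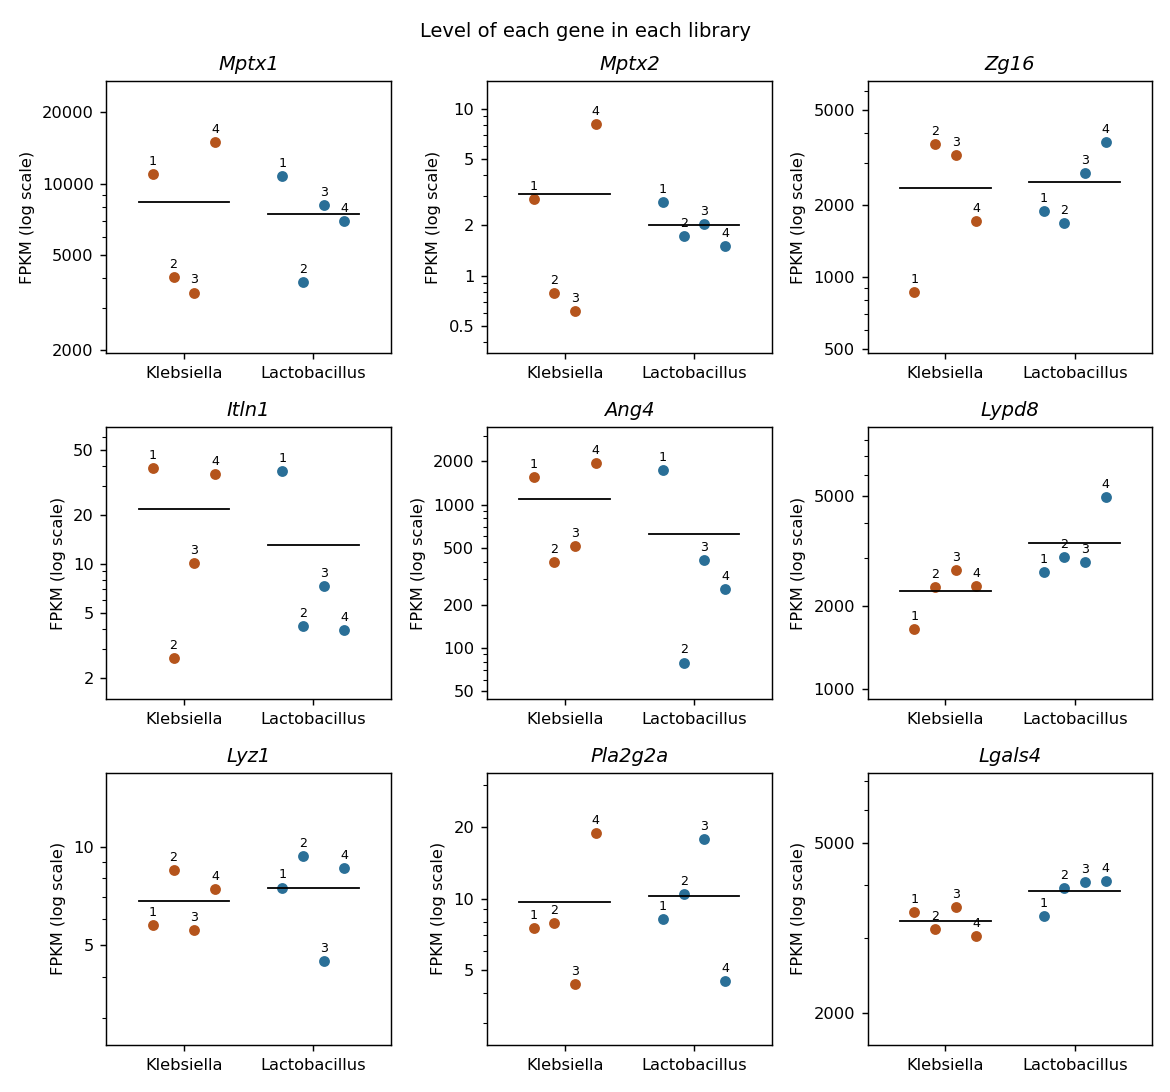
FPKM (log axis) of each of the 9 genes in each library, Klebsiella recipients on the left and Lactobacillus recipients on the right; numbers are replicates and the line is the group mean. The groups overlap in all 9 panels, and Itln1 and Ang4 sit high in Klebsiella replicates 1 and 4 and Lactobacillus replicate 1.

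Mptx1, a short pentraxin secreted by colonic epithelium, lies on chromosome 1 from 174330518 to 174332873 (GRCm38, plus strand). Klebsiella recipients, in the order of replicates 1 to 4 as everywhere here, had 10963, 4057, 3493 and 14988 FPKM, and Lactobacillus recipients had 10809.7, 3859.8, 8166 and 7002 FPKM. It ranked between the 1st and the 8th most abundant gene in each library, from 45511 to 207834 reads, and held 0.493% to 2.07% of all FPKM. The highest and the lowest library were both Klebsiella recipients, so the spread inside that group covered the whole of the other.

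Mptx2, known in the mouse as a transcript of Paneth cells in the small intestine, lies nearby on chromosome 1 from 173274382 to 173277777 on the minus strand. It was at 2.87, 0.787, 0.618 and 8.13 FPKM in Klebsiella recipients and at 2.75, 1.72, 2.04 and 1.51 FPKM in Lactobacillus recipients, from 8 to 112 reads. Its level followed that of Mptx1 (Pearson's r 0.89, Spearman's rho 0.93 over 8 libraries, a description), with Mptx1 between 1844 and 5653 times higher. The transcripts of the pair were 92.33% identical over 795 aligned columns. Of the windows of Mptx1, 17.87% of those of 50 bases and 3.29% of those of 100 bases also occurred in Mptx2. Raw reads averaged 149.9 to 150.0 bases. The sources used here do not say how reads matching both genes were counted, so the Mptx2 values are uncertain.

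Zg16, a goblet cell lectin that binds peptidoglycan, lies on chromosome 7 from 127050156 to 127087328 on the minus strand and overlaps Gm44939, a noncoding gene of the opposite strand. It was at 862, 3599.96, 3239.81 and 1712 FPKM in Klebsiella recipients and at 1889, 1685, 2738 and 3679 FPKM in Lactobacillus recipients. Klebsiella replicate 1, among the highest in Mptx1, was the lowest in Zg16. The Mptx1 level was 12.7 times the Zg16 level there and 1.08 times in Klebsiella replicate 3.

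Itln1, intelectin-1, a secreted lectin that binds microbial sugars, lies on chromosome 1 from 171518122 to 171535294 on the minus strand. It was at 38.6, 2.66, 10.2 and 35.6 FPKM in Klebsiella recipients and at 37.1, 4.14, 7.34 and 3.94 FPKM in Lactobacillus recipients, from 40 to 483 reads. Lgals4, galectin-4, a galactoside-binding lectin of gut epithelium, lies on chromosome 7 from 28833854 to 28841708 and was at 3457, 3139.73, 3549 and 3025 FPKM against 3373, 3919.7, 4054 and 4073 FPKM. These lectins differed in spread. The highest Itln1 level was 14.5 times the lowest, whereas the highest Lgals4 level was 1.35 times the lowest.

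Ang4, a ribonuclease of the angiogenin family that kills bacteria in mouse gut, lies on chromosome 14 from 51763878 to 51773590 on the minus strand. It was at 1550.29, 394, 515 and 1935 FPKM in Klebsiella recipients and at 1732, 79.0, 412 and 259 FPKM in Lactobacillus recipients. Klebsiella replicates 1 and 4 and Lactobacillus replicate 1 stood clear of the other 5 libraries, and the range was 24.5-fold. Of the related genes, Ang2, Ang5 and Ang6 were at most at 0.143 FPKM in any library, and Ang was at 15.3 to 25.7 FPKM. The Ang5 transcript shares 4.545% of the 50-base windows of Ang4 and 0% of the 100-base windows.

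Lypd8, a surface protein anchored to colonocytes, lies on chromosome 11 from 58379043 to 58390728. It was at 1654, 2343, 2696 and 2366 FPKM in Klebsiella recipients and at 2655, 3019, 2897 and 4973 FPKM in Lactobacillus recipients. A single pair of values crossed, Klebsiella replicate 3 being above Lactobacillus replicate 1. Lypd8 averaged 2265 ± 438 FPKM in Klebsiella and 3386 ± 1069 FPKM in Lactobacillus recipients (SD, n = 4 each).

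Lyz1, the Paneth cell lysozyme, lies on chromosome 10 from 117287797 to 117292868. It was at 5.76, 8.48, 5.58 and 7.43 FPKM in Klebsiella recipients and at 7.51, 9.36, 4.47 and 8.62 FPKM in Lactobacillus recipients. Lyz2, the lysozyme of macrophages, was 16.8 to 31.5 times higher, and r between the pair was 0.69. Their transcripts were 95.81% identical. Of the windows of Lyz1, 16.06% of those of 50 bases and 2.06% of those of 100 bases occurred in Lyz2. Not every read of Lyz1 can therefore be told with certainty from those of Lyz2.

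Pla2g2a, a secreted phospholipase that attacks bacterial membranes, lies on chromosome 4 from 138831857 to 138835186 and is annotated as a polymorphic pseudogene. It was at 7.53, 7.87, 4.35 and 18.9 FPKM in Klebsiella recipients and at 8.19, 10.5, 17.8 and 4.49 FPKM in Lactobacillus recipients. Each group held a library near the top of the range and one near its bottom. It overlaps Pla2g5 on the opposite strand (r 0.70 over the 8 libraries), and the sources used here do not say whether reads were assigned by strand. RNA of a gene with a disrupted reading frame says nothing about enzyme.

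Some members were steadier over the 8 libraries than others. With no untreated mice, this spread cannot say whether a gene is constitutive. The spread of log2 values over the 8 libraries was larger for Ang4 than for 99.1% of the tested genes, and larger for Itln1 than for 98.9%, Mptx2 than for 96.4%, Mptx1 than for 95.03%, Pla2g2a than for 94.3% and Zg16 than for 93.9%. Lypd8 and Lyz1 stood at 82.2% and 69.98%, and Lgals4 at 26.1%. The median ratio of the highest to the lowest library was 4.27 over the members and 1.64 over all tested genes. For comparison, the bacteria-induced lectin Reg3b ranged from 0.176 to 1469 FPKM; it was chosen for this after its values were seen.

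The first comparison asked whether recipients of Klebsiella differed from recipients of Lactobacillus in these genes. None of the 9 passed the adjusted threshold, and the residual SD between mice was larger than the difference for all but Lypd8 and Lgals4. The log2 difference (Klebsiella minus Lactobacillus) ran from -0.56 for Lypd8 to 1.34 for Ang4, and 3 were positive and 6 negative. With limma 0 of the 9 members passed an adjusted p under 0.05, and of 16865 genes tested 0% were called (smallest adjusted p 0.462). Voom on the recovered reads called 0 genes too, with 1046 at an unadjusted p under 0.05. At an unadjusted p under 0.05 there was 1 member, Lypd8, where 6.07% of all genes had such a p, 2.55% higher and 3.52% lower. With FPKM rescaled to a constant total, 58.2% rather than 42.0% of such genes were higher. The groups were apart for 0 of the 9 members, where 2.99% of all genes had groups that did not overlap.

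Ang4 had the largest log2 difference, 1.34 (SE 0.89, 95% interval -0.68 to 3.36, limma adjusted p 0.781). It averaged 1099 ± 762 FPKM in Klebsiella and 620.4 ± 753 FPKM in Lactobacillus recipients (SD, n = 4 each). The difference was 0.63 without Lactobacillus replicate 2 and 2.12 without Lactobacillus replicate 1. It was 2.61 with log2 Hoxd13 as a covariate and turned to -0.45 with the mean log2 level of 8 epithelial genes as a covariate. Itln1, which tracked Ang4 over the libraries, differed by 0.74 on the log2 scale (SE 0.92, interval -1.35 to 2.84, limma adjusted p 0.866). Its value was 0.28 without Klebsiella replicate 1 and 1.49 without Klebsiella replicate 2, and with the same covariates it was 2.22 and -1.21.

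Lypd8 had a log2 difference of -0.56 (SE 0.23, interval -1.09 to -0.024, unadjusted limma p 0.0424, adjusted p 0.774). It lay between -0.66 and -0.36 when each library was left out in turn, the smallest being without Lactobacillus replicate 4. It was 0.0505 with the epithelial covariate. Klebsiella libraries had an epithelial level of 9.08 to 9.28 and Lactobacillus libraries one of 8.73 to 9.14. Only Klebsiella replicate 3 lay below a Lactobacillus library, replicate 1, so this covariate and recipient group were largely tied. The part of the epithelial level in the Lypd8 difference was not tested. The epithelial level was mostly higher in Klebsiella recipients, the opposite direction to Lypd8. In bulk tissue fewer cells of a type and less RNA per cell cannot be told apart.

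Lgals4 gave the narrowest interval, around a log2 value of -0.23 (SE 0.14, interval -0.54 to 0.083, limma adjusted p 0.774). Mptx1, the most abundant member, had a log2 difference of -0.0087 (SE 0.52, interval -1.19 to 1.17, limma adjusted p 0.999), so a doubling or halving in either direction lay within the interval. Its sign turned under each of the 3 rescalings of FPKM. Zg16 was at -0.22 (interval -1.26 to 0.81), Pla2g2a at -0.11 (-1.19 to 0.96), Lyz1 at -0.0995 (-0.63 to 0.43) and Mptx2 at 0.046 (-1.29 to 1.38), with limma adjusted p of 0.929 to 0.992. The residual SD on the log2 scale had a median of 0.80 over the members and 0.239 over all genes. The median difference was -0.0995 over the members and -0.017 over all genes.

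**Figure D2:**
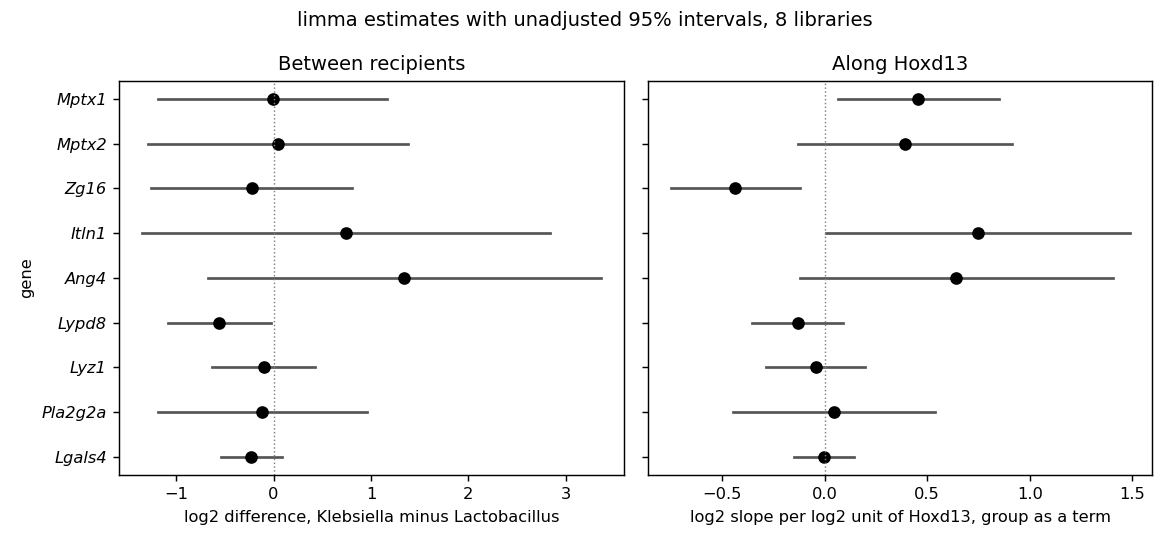
limma estimates with unadjusted 95% intervals over 8 libraries: left, the log2 difference of Klebsiella minus Lactobacillus recipients; right, the log2 slope per log2 unit of Hoxd13 with the recipient group as a term. The interval for Lypd8 ends at -0.024 on the left; on the right those of Mptx1, Zg16 and Itln1 lie on 1 side of 0, and none passed after adjustment.

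Within the libraries the members formed sets that varied together. Itln1 and Ang4 had r 0.87 (rho 0.81), Mptx1 and Itln1 r 0.78 (rho 0.62) and Mptx1 and Ang4 r 0.77 (rho 0.71). Zg16 went the other way from Itln1 (r -0.71, rho -0.69) and with Lypd8 (r 0.67, rho 0.38), and Ang4 went the other way from Lgals4 (r -0.66, rho -0.67). Lypd8 and Lgals4 had r 0.64 (rho 0.81). All are descriptions over the same 8 libraries, whose depth and tissue composition the genes share.

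The 3 libraries high in Itln1 and Ang4 came from both groups: Klebsiella replicates 1 and 4 and Lactobacillus replicate 1. Itln1 was at 35.6 to 38.6 FPKM there and at 2.66 to 10.2 FPKM in the other 5, and Ang4 at 1550.29 to 1935 FPKM against 79.0 to 515 FPKM. Retnlb, the goblet cell resistin-like protein that acts on bacteria, had 660.083, 466 and 541 FPKM in these libraries, against 20.6 to 273 FPKM elsewhere (r 0.91 with Itln1); it was named after its values were seen. Clca1, a protease of goblet cell mucus, was at 4971, 3575, 3378 and 7474 FPKM in Klebsiella recipients and at 5799, 967, 2791 and 4501 FPKM in Lactobacillus recipients (r 0.89 with Ang4).

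Fcgbp, a protein of goblet cell mucus named after its values were seen, was also highest in these 3 libraries, at 1212, 1475 and 1477 FPKM against 388 to 1101 FPKM elsewhere. Spink4, Muc2 and Tff3 had another order. Spink4, a goblet cell gene, was highest in Klebsiella replicate 1 and Lactobacillus replicate 1, at 3192 and 2979 FPKM. Its level was lower in Klebsiella replicate 4 (1863 FPKM) than in Klebsiella replicate 3 (2239 FPKM). Muc2, the gel-forming mucin, was at 2611, 4139, 4305 and 2381 FPKM in Klebsiella recipients and at 2396, 2858, 1289.55 and 1159 FPKM in Lactobacillus recipients, and its r with Zg16 was -0.083. Tff3, a trefoil peptide of goblet cells, had r 0.82 with Zg16. The colonocyte genes Slc26a3 and Krt20, named after their values were seen, had r 0.79 and 0.68 with Zg16. The colonocyte carbonic anhydrase Car4 had r 0.87 with Lypd8, against 0.81 for Slc26a3 and 0.44 for Krt20. The 15 goblet cell genes summed to 15664 to 17507 FPKM in Klebsiella libraries, against 10571 to 17450.2 FPKM in Lactobacillus libraries. The part of this in the members' spread was not tested.

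**Figure D3:**
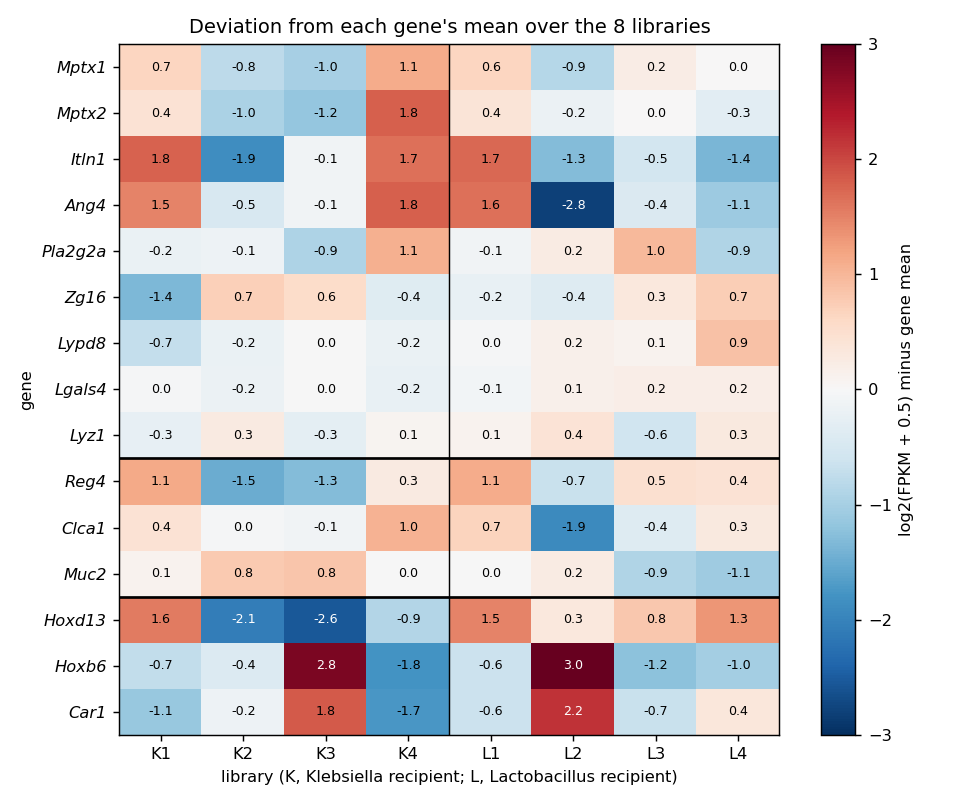
log2(FPKM + 0.5) of each gene minus its mean over the 8 libraries, Klebsiella recipients (K) left and Lactobacillus recipients (L) right, with replicate numbers; the rows below the first line are 3 secretory genes and those below the second 3 position markers. Itln1 and Ang4 are raised together in K1, K4 and L1, while Hoxb6 and Car1 are raised together in K3 and L2.

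The genes nearest to each member over the 8 libraries, of 14024 searched, were named by their r alone. They were Efcab11, Net1 and Mmp19 for Mptx1 (highest r 0.924), Mb21d2, Ttc1 and Pwp1 for Mptx2 (0.989), Syne2, Efcc1 and Rab27b for Zg16 (0.992) and Mdm1, Ak6 and Mmp19 for Itln1 (0.956). Clca2, Ap1g1 and Rnf6 were nearest to Ang4 (0.967), Gin1, Ctss and Mpp5 to Lypd8 (0.981), Tardbp, Haao and Pik3cd to Lyz1 (0.986), Dapk2, Mrps27 and Nup62 to Pla2g2a (0.948) and Aplf, Dmap1 and Rdm1 to Lgals4 (0.969). Mmp19, a metalloproteinase, was near both Mptx1 and Itln1. With 8 libraries and so many genes, values of this height are found for each member.

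The second comparison set the members against Hoxd13 as a marker of position along the gut. Hoxd13, which belongs to the distal end of the body axis, had 46.3, 3.25, 2.20 and 8.03 FPKM in Klebsiella recipients, against 43.9, 19.1, 27.3 and 39.2 FPKM in Lactobacillus recipients. Klebsiella replicates 2 to 4 lay below every Lactobacillus library, so Hoxd13 and recipient group were partly tied. Hoxa13, another distal marker, did not follow Hoxd13: it had 33.2, 41.0, 40.1 and 43.7 FPKM in Klebsiella recipients, against 35.5, 30.9, 50.96 and 50.2 FPKM in Lactobacillus recipients (Hoxd13 slope -0.046). Hoxd11, by contrast, went with Hoxd13 (slope 0.53, SE 0.17). Of the listed distal genes besides Hoxd13, 3 had a positive slope at an unadjusted limma p under 0.05 and 0 a negative slope (median slope 0.47). The distal markers thus did not all go together, and the slopes below refer to Hoxd13 itself. Hoxb6, which marks more proximal colon, was at 40.2 FPKM in Klebsiella replicate 3 and 45.2 FPKM in Lactobacillus replicate 2 and at 1.16 to 3.87 FPKM in the other 6. Prac1 was not among the symbols used here.

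With the recipient group as a term, Mptx1 had a slope of 0.46 per log2 unit of Hoxd13 (SE 0.17, unadjusted limma p 0.0273, adjusted p 0.750). Itln1 had a slope of 0.75 (SE 0.32, unadjusted limma p 0.0480) and Zg16 a slope of -0.43 (SE 0.14, unadjusted limma p 0.0130, adjusted p 0.750). The estimates were positive for Mptx1 and Itln1 and negative for Zg16, but 0 of 9 members passed after limma's adjustment, and 0% of the 16864 genes tested were called (smallest adjusted p 0.603, with 0 called by voom too). At an unadjusted p under 0.05 there were 3 of 9 members, where 6.62% of all genes had such a p, 2.04% with a positive and 4.58% with a negative slope. Ang4 and Mptx2 had slopes of 0.64 (SE 0.33) and 0.39 (SE 0.23). Lypd8, Lyz1, Pla2g2a and Lgals4 lay between -0.13 and 0.047. The median absolute slope was 0.39 over the members and 0.057 over all genes.

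These slopes depended on the group term and on a few libraries. With no group term the slope was 0.27 for Mptx1, 0.28 for Itln1, 0.094 for Ang4, 0.22 for Mptx2 and -0.21 for Zg16. Without Klebsiella replicate 1 the slope was 1.21 for Mptx1, 1.49 for Itln1, 1.86 for Ang4, 1.27 for Mptx2 and -0.24 for Zg16. Without Klebsiella replicates 2 and 3, the libraries farthest from the median of Hoxd13, it was 0.078 for Mptx1, 0.39 for Itln1 and -0.22 for Zg16.

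**Figure D4:**
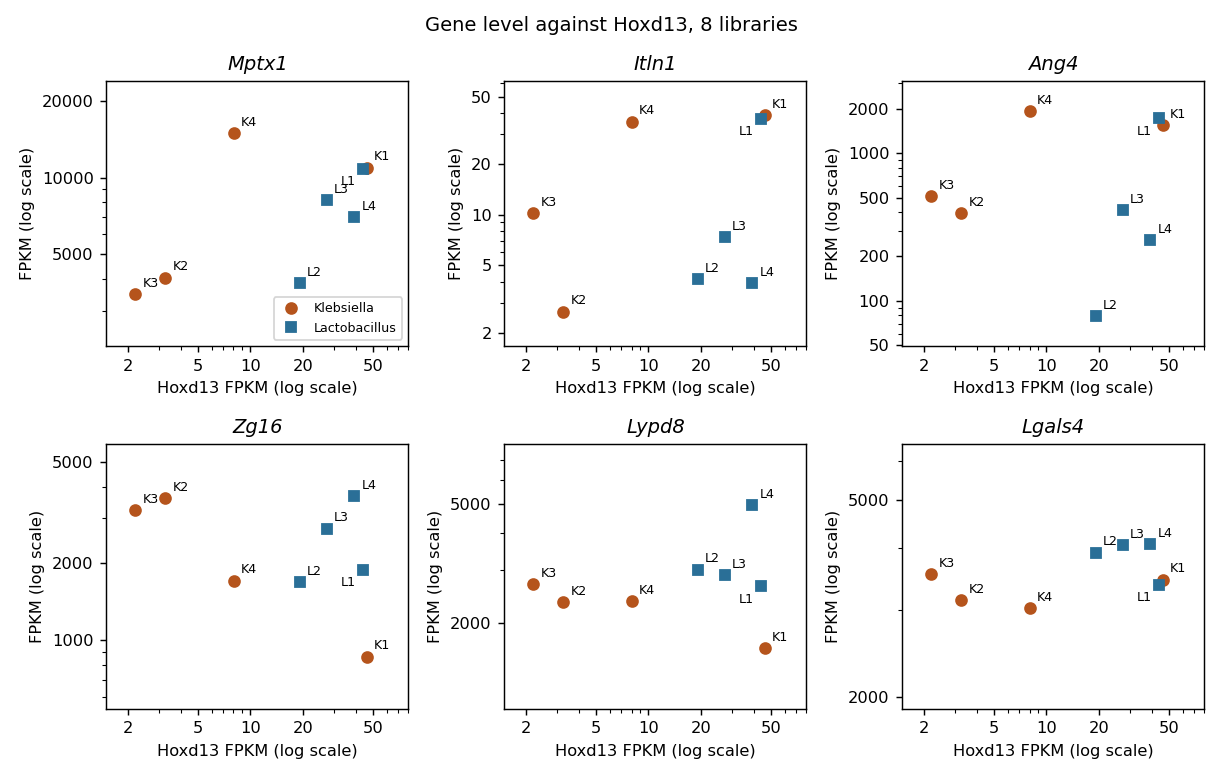
FPKM of 6 members against FPKM of Hoxd13 (both log axes), Klebsiella recipients as circles and Lactobacillus recipients as squares, each labelled by group and replicate. Mptx1 is low in K2 and K3, where Hoxd13 is lowest, but also in L2 at 19.1 FPKM of Hoxd13. It is high in K4 at 8.03 FPKM of Hoxd13. Lgals4 stays between 3025 and 4073 FPKM throughout.

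The pair of libraries with high Hoxb6 is described without a test. Lactobacillus replicate 2 had the lowest Ang4 of all libraries, 79.0 FPKM, but Klebsiella replicate 3 had 515 FPKM, above Klebsiella replicate 2 at 394 FPKM. Klebsiella replicate 3 had the lowest Mptx1, 3493 FPKM, with Lactobacillus replicate 2 next above it at 3860 FPKM. Klebsiella replicate 2, with Hoxb6 at 3.87 FPKM, was close to these at 4057 FPKM of Mptx1. Reg3b was at 591 FPKM in that Klebsiella library, at 1469 FPKM in that Lactobacillus library and at most at 13.7 FPKM elsewhere. Car1, a carbonic anhydrase of colonocytes, was at 2342 and 2947 FPKM in the pair and at 195 to 836 FPKM elsewhere. Klebsiella replicate 2, low in Mptx1 and Itln1, and Lactobacillus replicate 3 carried pancreatic transcripts, with Ctrb1 at 418 and 112 FPKM against at most 2.99 FPKM in the others; their part in the members' levels was not tested.

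The listed Paneth cell transcripts, which do not include the members Lyz1 and Mptx2, were almost absent. Of the 12 listed genes that the data hold, 8 were at 0 in every library, 7 of them among the 10 alpha-defensins, and the other 3 defensins reached at most 0.152 FPKM. The whole list summed to 0.108 to 1.01 FPKM in Klebsiella and 0.0534 to 2.56 FPKM in Lactobacillus libraries. Ang4 at 79.0 to 1935 FPKM was therefore measured in tissue with next to no counted RNA of these defensins. How reads matching more than 1 defensin gene were counted is not stated, and likeness among these genes was not examined. Values of 0 may therefore understate their RNA. Macrophage genes, which include Lyz2, summed to 304 to 389 FPKM in Klebsiella libraries, against 329.787 to 529 FPKM in Lactobacillus libraries; their part in the Lyz1 values was not tested.

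Of 60 other antimicrobial and lectin genes of the gut, 57 were in the table and 39 were tested. With limma 0 of them were higher and 0 lower after adjustment, and 0 and 2 at an unadjusted p under 0.05, where 2.55% of all genes were higher and 3.52% lower. Their median log2 difference was -0.11, with 15 positive and 24 negative; over all tested genes 46.4% were positive. The 4 most abundant were Pigr, the receptor that carries IgA into the lumen, Lgals3, Dmbt1 and Reg4. Pigr was at 2333, 2503, 2490.43 and 2591 FPKM in Klebsiella recipients and at 2744, 3076, 3084 and 2943 FPKM in Lactobacillus recipients. These groups did not overlap, as was so for 2.99% of all tested genes. Pigr differed by -0.26 on the log2 scale (SE 0.12, limma adjusted p 0.774). Pglyrp1, named after its values were seen, did not overlap either, at 226.6 to 257.4 FPKM against 263.2 to 316.4 FPKM (limma adjusted p 0.774). Reg4, a secreted lectin of deep crypt secretory cells, was at 1088, 175, 201 and 600.201 FPKM in Klebsiella recipients and at 1073, 313, 694 and 668 FPKM in Lactobacillus recipients. It had r 0.85 with Mptx1 and a Hoxd13 slope of 0.695 (SE 0.12, limma adjusted p 0.603).

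Other cell type lists gave no gene past adjustment either. Of 15 tested goblet cell genes 12 were positive and 3 negative in log2 difference (median 0.27). Of 13 colonocyte genes 2 were positive and 11 negative, with a median of -0.38. Of 8 epithelial genes 7 were positive, with a median of 0.19. Over all tested genes 46.4% were positive and the median was -0.017. At an unadjusted p under 0.05, 3 goblet cell genes were higher and 0 lower, 0 colonocyte genes higher and 1 lower, and 2 epithelial genes higher and 0 lower, beside 2.55% higher and 3.52% lower over all genes.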

How the data were processed

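The authors deposited a table of FPKM (reads scaled for gene length and depth) for 49585 identifiers. They also deposited counts of reads per library and the percent of bases at quality 30 or above. The submitters' processing notes list STAR 2.5.1b, HTSeq 0.6.0, CASAVA and DESeq2 1.10.1; no source used here gives the build, annotation or RNA selection. Libraries were made with a TruSeq kit per the labels' protocols. GENCODE M21 (GRCm38) gave symbols for 49326 identifiers and positions, and RefSeq (GRCm38.p6) gave promoters.

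A mean of at least 0.5 FPKM was required, which left 16865 genes and all 9 members, and log2(FPKM + 0.5) was analysed. A difference on this scale understates that of low genes. The group difference was fitted in R 4.3.3 with limma 3.58.1 (two-sided, mean-variance trend, Benjamini-Hochberg adjustment over all genes, threshold 0.05), and the Hoxd13 slope in the same way with group as a term. Whole reads could be recovered from FPKM (relative tolerance 1e-12) in 26963 of 26963 genes, 100%, that were above 0 in 2 or more libraries; voom on those reads called 0 genes. The reads cover counting error only. Read statistics were compared with an exact permutation test over 4 against 4 libraries, with p of at least 0.257 (smallest possible 0.0286). The fits were tested on simulated data. Python 3.11.15 was used for the rest.

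Genes named beside the members are the 3 nearest by r, the 4 most abundant of each list and the position markers; any other is said to be chosen after its values were seen. Members and lists were chosen with earlier results of these data known. Alternatives were other pseudocounts, filters, rescalings, weights, covariates, the mouse number as a block, and libraries left out; voom for the slope was added after the data were seen.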

Additional observations from a re-analysis of the deposited data

Results flagged for a closer look

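Within a group of 4 libraries, 1 library stood far from the other 3 in 2 of the 18 sets looked at (9 genes in each recipient group). The rule was applied to FPKM, and log2 values, used for the other comparisons, were not looked at in this way. Chance gives about 1 in 20 only for normally distributed values in independent sets. FPKM of genes from the same libraries need not meet this, so the 2 flags are descriptions on the FPKM scale. Itln1 was at 37.05 FPKM in Lactobacillus replicate 1 and at 3.94 to 7.34 FPKM in the other Lactobacillus libraries. Lypd8 was at 4973 FPKM in Lactobacillus replicate 4 and at 2655 to 3019 FPKM in the other Lactobacillus libraries. Without these libraries the log2 differences were 1.44 for Itln1 and -0.36 for Lypd8.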

How the results depend on the processing

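Over 23 alternatives for the group difference and 17 for the Hoxd13 slope, 0 of 360 member estimates passed an adjusted p under 0.05 with limma, and 46 changed sign. In the group comparison 0 genes were called under every alternative. For the slope 1 gene, Igkv8-16, was called without Klebsiella replicates 2 and 3, and 0 under the others.

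The sign of the group difference turned as follows. Mptx1 was at 0.0191 with a constant total, 0.0121 with median-of-ratios factors, 0.00595 with trimmed mean factors, 0.894 with Hoxd13 as a covariate, and 0.0364 and 0.325 without the pairs with high Hoxb6 and high Ctrb1. Mptx2 was at -0.0495 with a pseudocount of 0.1, -0.202 with array weights, -0.0785 with voom and -0.97 with the epithelial covariate. That covariate also gave 0.67 for Zg16, -1.21 for Itln1, -0.45 for Ang4 and 0.0505 for Lypd8, and array weights gave 0.0772 for Zg16. Lyz1 was at 0.0997 without the Hoxb6 pair, and Pla2g2a at 0.24 and 0.22 without the Hoxb6 and Ctrb1 pairs. Leaving out each library gave -0.38 to 0.32 for Mptx1, -0.54 to 0.44 for Mptx2, -0.498 to 0.19 for Zg16, -0.31 to 0.017 for Lyz1 and -0.49 to 0.19 for Pla2g2a.

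The sign of the slope turned without Klebsiella replicates 2 and 3 for Mptx2 (-0.38), Pla2g2a (-0.58) and Lgals4 (0.036), without the Hoxb6 pair for Pla2g2a (-0.16) and Lgals4 (0.032), and with no group term for Lypd8 (0.040) and Lgals4 (0.046). With the mouse number as a replicate block and the group term dropped, 2 changes at once, it was -0.31 for Itln1, -0.59 for Ang4, 0.16 for Lypd8 and 0.11 for Lgals4, and 0.069 for Mptx1 and -0.049 for Zg16, whose signs held. Dropping the group term alone gave 0.28 for Itln1 and 0.094 for Ang4. Leaving out each library gave -0.16 to 0.013 for Lypd8, -0.13 to 0.091 for Lyz1, -0.17 to 0.44 for Pla2g2a and -0.12 to 0.027 for Lgals4. The cause of these turns was not tested.

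Mouse numbers did not pair the libraries: deviations of same-numbered libraries correlated at 0.19, -0.10, -0.059 and -0.16. The replicate block gave 0 called genes and 1027 at an unadjusted p under 0.05, against 1024 without it. That count was 2009 without Lactobacillus replicate 1, 1828 without Klebsiella replicate 3, 1825 with array weights, 1693 with Hoxd13 as a covariate, 572 without Lactobacillus replicate 3 and 431 without the Ctrb1 pair. With 8 to 112 reads, Mptx2 is limited by depth; the other members had at least 40 reads in each library.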
